A study of Mus musculus with 4 samples.

Results

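RNA of mouse pancreatic islets was compared between 2 bulk libraries: control islets, and islets labelled as a knockout of IMP2, the RNA-binding protein encoded by Igf2bp2. Both came from C57BL/6 mice, and the genotypes are given as control and as Rip2;IMP2. The name Rip2 usually stands for an insulin promoter that drives transgenes in beta cells, so other cells of the islet would keep the intact gene. Not given in the sources used here were the age, number and sex of the animals and the exons targeted. Of 43629 genes listed, 15615 were measured, meaning a mean CPM (a gene's count scaled to the common total that is usual for this unit) of at least 1 over both libraries and a gene type other than immunoglobulin or T cell receptor segment. The IMP2 immunoprecipitation and IgG libraries of the same series were not used.

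Each group held 1 library, so no difference has a replicate check and no test across samples was possible. The ratio of scaled counts (library labelled knockout over control) came with an exact 95% interval, and genes past 1.5-fold with an interval that excluded 1 were called higher or lower. That interval covers counting error only and compares 2 libraries, not 2 genotypes. By this rule 962 genes were higher in the library labelled knockout (6.16% of those measured) and 2298 were lower (14.7%), 20.9% in all. A share of members near these values is no more than that of all genes. The gene lists described hold 1640 different genes found in the files, of which 1507 were measured and the others lay under the minimum. The median log2 ratio of all measured genes was 0.01.

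Islets are clusters of endocrine cells, mainly insulin-secreting beta cells and glucagon-secreting alpha cells, supplied by a dense capillary network. Beta cells translate hormone precursors into the endoplasmic reticulum (ER), process and store them in granules, and release them when glucose metabolism closes potassium channels and opens calcium channels. IMP2 binds mRNA and is known to affect its stability, location and translation. In bulk RNA, fewer cells of a type and less RNA per cell cannot be told apart.

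The targeted gene, Igf2bp2, did not differ between the libraries beyond counting error. Control islets gave 255 counts (9.68 CPM) and the library labelled knockout 222 (9.14 CPM), a ratio of 0.979 (95% interval 0.814 to 1.18). The gene lies on mm10 chromosome 16, from 22059009 to 22163299, on the minus strand. A count over the whole gene does not check the loss of some of its exons. The label is therefore unchecked, and every direction below is one between these libraries.

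Gene totals were 26350813 counts in control islets and 24275628 in the library labelled knockout. Lymphocyte RNA differed strongly between them: 12 of 12 B cell genes and 12 of 12 T cell genes were lower, and their summed levels went from 1549 to 291 CPM and from 321 to 45.8 CPM. Genes of the Y chromosome summed to 197 counts in control islets and 20 in the library labelled knockout. Ins1 and Ins2, whose reads can be shared, had ratios of 1.13 and 1.10. Since lymphocyte RNA held a larger share of the control library, all ratios were also computed with the median ratio of 64 beta cell genes (transcription factors, ion channels, granins and prohormone processing) set to 1. This alternative moved the median log2 ratio of all genes from 0.01 to -0.32 and the calls from 962 higher and 2298 lower to 229 higher (1.47%) and 4306 lower (27.6%). It is called beta cell scaling below. Of the 77 gene lists, 19 had a median above 0 that it moved below 0, and 0 moved the other way. Since the ion channels, transcription factors and granins set the scale, their values with it are held near 0 by construction.

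**Figure D1:**
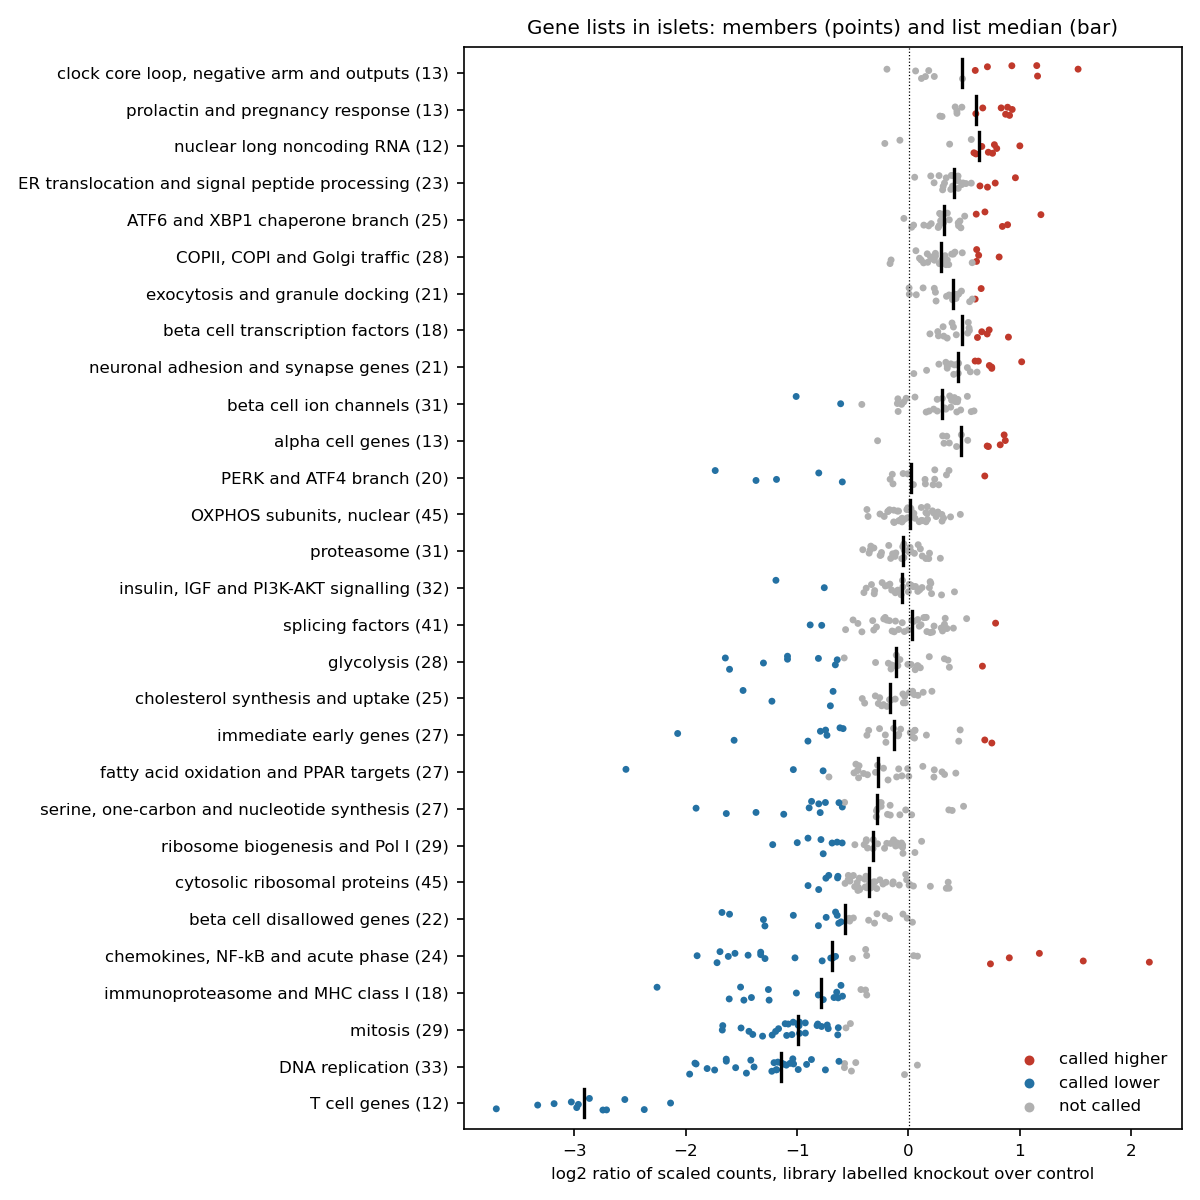
Log2 ratio of scaled counts (library labelled knockout over control, x axis) for members of gene lists (y axis, number measured in brackets); each point is a gene, coloured by its call, and the black bar is the list's median. The clock and prolactin lists have 6 and 7 members called higher and 0 lower, DNA replication and mitosis have 27 lower each; with beta cell scaling the medians of the ATF6 and XBP1 and Golgi traffic lists fall to just below 0.

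The circadian clock genes moved in opposite directions by arm. The clock is a feedback loop in which CLOCK and BMAL1 (encoded by Arntl) activate the Per, Cry and Nr1d genes and the output factors Dbp, Tef and Hlf. PER and CRY proteins then inhibit CLOCK and BMAL1, and the NR1D proteins repress Arntl and Nfil3. In the negative arm and outputs, 6 of 13 measured genes were higher in the library labelled knockout and 0 were lower, with a median log2 ratio of 0.49. In the positive arm with Nfil3, 0 of 5 were higher and 2 were lower.

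Per3, a period gene, went from 15.3 CPM in control islets to 42.6 in the library labelled knockout, a ratio of 2.88 (2.56 to 3.24). Per2, which is part of the core inhibitory complex, went from 29.1 to 62.5 CPM (ratio 2.22, 2.04 to 2.43). Dbp, Tef and Hlf encode the PAR bZIP factors, which bind D-box elements. Dbp went from 30.3 to 65.4 CPM (ratio 2.23, 2.05 to 2.44) and Tef from 83.5 to 154 CPM (ratio 1.90, 1.81 to 2.01). Hlf had 202 and 294 counts, a ratio of 1.64 (1.36 to 1.97). Nr1d2, which encodes REV-ERB beta, was called at 1.52 (1.41 to 1.63). The other members of the arm were not called: the ratio was 1.13 for Per1, 1.11 for Nr1d1, 1.08 for Cry1, 1.05 for Cry2 and 0.874 for the repressor gene Bhlhe40.

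Arntl went the other way, from 347 counts (13.2 CPM) to 126 (5.19 CPM), a ratio of 0.408 (0.330 to 0.502). Nfil3, a repressor that competes for D-box elements, went from 24.7 to 8.69 CPM (ratio 0.365, 0.311 to 0.427). Clock was not called, at 0.905 (0.815 to 1.0). Npas2, a paralog of Clock, had 39 and 11 counts and stayed under the minimum for a call. Nfil3 and Arntl are also expressed in lymphocytes, whose genes were lower in the same library, and the share of that difference in theirs was not tested. With beta cell scaling, Per3, Dbp, Per2 and Tef were still called higher, at ratios of 2.29, 1.78, 1.77 and 1.52, while Hlf and Nr1d2 were not. The hour of collection is not given in the sources used here.

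**Figure D2:**
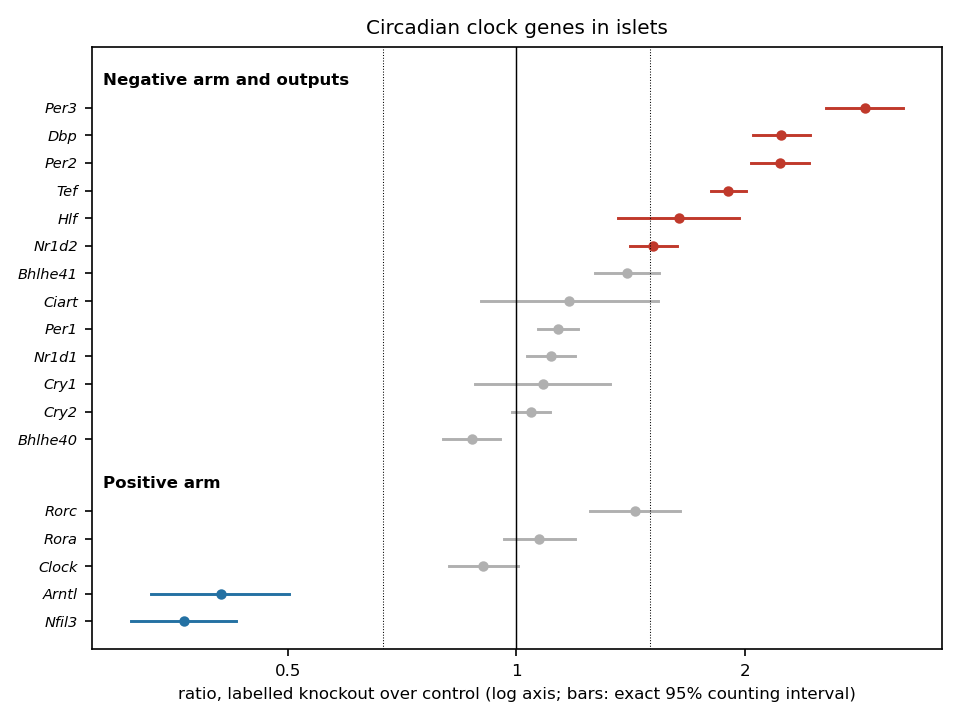
Ratio of scaled counts for clock genes, library labelled knockout over control (x axis, log scale), with exact 95% counting intervals as bars; red and blue points are called higher and lower, grey points are not called, and dotted lines mark 1.5-fold. Per3 stands farthest to the right at 2.88, and Arntl and Nfil3 stand to the left at 0.408 and 0.365.

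The 250 bases before the start were searched on both strands for the E-box CACGTG, the element that CLOCK and BMAL1 bind, and for the D-box TTATGTAA (RefSeq promoters, GRCm38.p6; 11 of the 13 measured genes of the negative arm and outputs are in that table). The E-box was found in 5 of 11 (Bhlhe41, Ciart, Cry1, Per1 and Tef), against 6.86% of all genes in the table. Of the 5 genes called higher that have a promoter there, 1 held it. The D-box was found in Per3 alone, with 2 matches, against 0.977% of all genes. These 2 windows are shown because both genes were called higher, with the matches in capitals (Per3, minus strand, chr4:151044666-151044915; Tef, plus strand, chr15:81811164-81811413). A match describes the letters and is not a measured binding site.
Per3: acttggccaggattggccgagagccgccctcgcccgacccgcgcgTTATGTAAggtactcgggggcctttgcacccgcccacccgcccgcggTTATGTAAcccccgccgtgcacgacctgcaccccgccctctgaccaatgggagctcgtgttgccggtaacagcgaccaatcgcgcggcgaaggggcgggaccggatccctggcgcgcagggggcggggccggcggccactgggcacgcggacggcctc
Tef: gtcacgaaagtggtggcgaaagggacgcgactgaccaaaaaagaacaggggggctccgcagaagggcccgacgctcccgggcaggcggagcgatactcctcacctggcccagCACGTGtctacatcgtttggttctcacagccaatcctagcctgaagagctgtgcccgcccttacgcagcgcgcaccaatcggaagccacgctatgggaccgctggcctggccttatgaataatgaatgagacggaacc

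The lists for the branches of the unfolded protein response differed in their calls. ATF6 and XBP1 are transcription factors that are activated when unfolded protein builds up in the ER, and they induce chaperones and degradation factors. Of their 25 measured target and pathway genes, 5 were higher in the library labelled knockout, 0 were lower and 24 had a ratio above 1, with a median log2 ratio of 0.32 that became -0.01 with beta cell scaling. Dnajb9, a co-chaperone of the ER, went from 54.2 to 119 CPM (ratio 2.28, 2.14 to 2.43) and was still called with beta cell scaling, at 1.82. Manf, a secreted ER stress factor, went from 161 to 288 CPM (ratio 1.85, 1.78 to 1.93). Derl3 and Edem2, which act in ER-associated degradation, had ratios of 1.79 (1.62 to 1.99) and 1.61 (1.54 to 1.68). Ern1, which encodes the sensor IRE1 alpha, was called at 1.52 (1.43 to 1.62). The abundant chaperone gene Hspa5 (BiP) was not called, at 1.21 (1.19 to 1.23), nor were Xbp1 at 1.42, Hsp90b1 at 1.02 and Canx at 0.972.

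The PERK and ATF4 branch lowers translation and induces amino acid supply and cell death factors. Of its 20 measured genes 1 was higher (5%, against 6.16% of all genes) and 5 were lower (25%, against 14.7%). The median was 0.02. With beta cell scaling 0 were higher and 5 lower (25%, against 27.6% of all genes), at a median of -0.31. Atf3 was the member called higher, from 248 to 355 counts (ratio 1.61, 1.36 to 1.90). The 5 lower genes serve amino acid supply or growth control. Slc7a11, the cystine transporter, had 80 and 21 counts (ratio 0.295, 0.173 to 0.482). Psat1, Phgdh and Shmt2, enzymes of serine and glycine synthesis, had ratios of 0.386, 0.571 and 0.662, and Ddit4, an inhibitor of mTORC1, had 0.439. The part of lymphocyte RNA in these lower values was not tested. The central factors were not called: Atf4 had a ratio of 1.11, Ddit3 (CHOP) 1.29, Trib3 1.03, Asns 1.17 and Ppp1r15a 0.908.

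Genes that carry proteins into and out of the ER leaned higher. Of 23 measured genes of ER translocation and signal peptide processing, 4 were higher, 0 were lower and 23 had a ratio above 1, with a median of 0.41 (0.08 with beta cell scaling). Srprb, a subunit of the receptor for the signal recognition particle, went from 32.0 to 60.1 CPM (ratio 1.95, 1.79 to 2.12). The translocon genes Sec61g, Sec61a1 and Sec62 had ratios of 1.72, 1.64 and 1.56. With beta cell scaling Srprb alone of these 4 was called, at 1.55. Genes of COPII, COPI and Golgi traffic had 4 of 28 higher and 0 lower, at a median of 0.29 that became -0.04 with beta cell scaling. Mcfd2 and Lman1, which together form a cargo receptor, had ratios of 1.76 (1.64 to 1.88) and 1.55 (1.48 to 1.61), beside Tmed9 and Kdelr2, both at 1.53. Hid1, which acts in the formation of secretory granules, went from 139 to 278 CPM (ratio 2.07, 1.99 to 2.16).

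**Figure D3:**
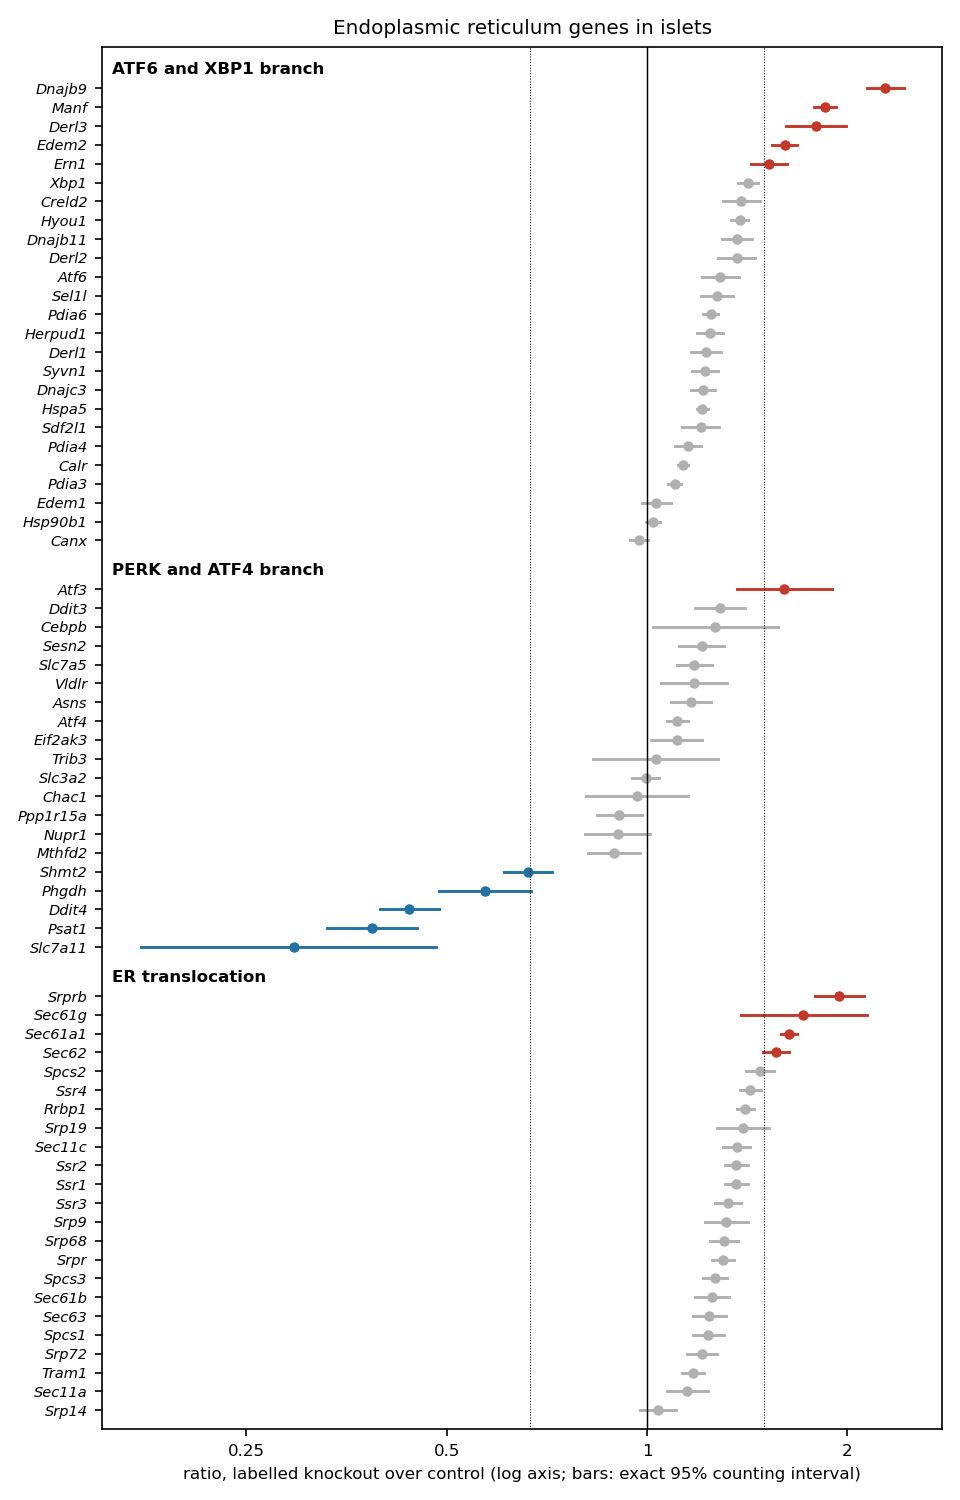
Ratio of scaled counts for genes of both unfolded protein response branches and of ER translocation, library labelled knockout over control (x axis, log scale), with exact 95% counting intervals; colours mark calls and dotted lines 1.5-fold. Dnajb9 is the highest at 2.28 and Slc7a11 the lowest at 0.295; with beta cell scaling the median of the ATF6 and XBP1 genes lies at -0.01 on the log2 scale.

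The ER stress response element, CCAAT and CCACG with 9 bases of any kind between them, was searched on both strands of the same promoters. It was found in 9 of the 21 ATF6 and XBP1 genes with a promoter in the table (Calr, Canx, Creld2, Derl3, Dnajc3, Hsp90b1, Hspa5, Pdia6 and Syvn1), against 0.130% of all genes. Among the 4 genes called higher that have a promoter there, Derl3 alone held it. Its window (plus strand, chr10:75893148-75893397) is printed with the match in capitals, which reads on the opposite strand. The UPRE core TGACGTGG was in 0 of the 21 windows, against 0.603% of all genes.
Derl3: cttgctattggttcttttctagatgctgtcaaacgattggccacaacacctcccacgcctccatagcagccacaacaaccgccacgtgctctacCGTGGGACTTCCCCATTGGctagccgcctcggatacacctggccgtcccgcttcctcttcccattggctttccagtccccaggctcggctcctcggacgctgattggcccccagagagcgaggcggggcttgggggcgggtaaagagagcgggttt

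Genes known to be induced in islets by prolactin or in pregnancy were higher as a group. Prolactin and placental lactogen act through the prolactin receptor and STAT5, and islets respond with beta cell growth and serotonin synthesis. Of 13 measured genes, 7 were higher in the library labelled knockout, 0 were lower and 13 had a ratio above 1, with a median of 0.60 (0.28 with beta cell scaling). Prlr, the receptor, went from 207 to 318 CPM (ratio 1.59, 1.53 to 1.64). Cish and Socs2, feedback inhibitors that STAT5 induces, had ratios of 1.78 (1.69 to 1.88) and 1.52 (1.43 to 1.62). Tph1, the enzyme that starts serotonin synthesis, went from 84.3 to 153 CPM (ratio 1.88, 1.78 to 1.98). Cldn8, a claudin, went from 67.9 to 125 CPM (ratio 1.91, 1.80 to 2.02) and was the only one of the 7 still called with beta cell scaling, at 1.52.

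Ivd, an enzyme of leucine breakdown, went from 361 to 647 CPM (ratio 1.85, 1.81 to 1.90). Lrrc55, an auxiliary subunit of BK potassium channels, had a ratio of 1.83 (1.71 to 1.97). The remaining 6 were not called, with ratios from 1.22 for Igfals to 1.39 for Oxtr, the oxytocin receptor gene. The libraries also differed in RNA of the Y chromosome, given above, and in Xist, the X inactivation RNA, with 600 CPM in control islets and 748 in the library labelled knockout (ratio 1.29, 1.26 to 1.32). Ddx3y had 51 and 0 counts and Eif2s3y 50 and 0, at least 15.1-fold and 14.8-fold lower. In control islets Ddx3y was at 1.94 CPM and its X chromosome counterpart Ddx3x at 224 CPM. Xist was abundant in both libraries. A difference in the sex make-up of the animals was not tested and cannot be told apart from the label. Among receptors of sex hormones, Esr1 had a ratio of 0.547 (76 and 37 counts) and Gper1 2.18 (32 and 62).

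The STAT5 element TTCNNNGAA, searched after these values had been seen, was found on either strand in 3 of the 10 genes with a promoter in the table (Igfals, Ivd and Prlr), against 8.13% of all genes. Of the 5 called higher that have a promoter there, 2 held it. The window of Ivd, the called gene with the narrowest interval, is printed up to the first annotated exon (plus strand, chr2:118861744-118861953, match in capitals).
Ivd: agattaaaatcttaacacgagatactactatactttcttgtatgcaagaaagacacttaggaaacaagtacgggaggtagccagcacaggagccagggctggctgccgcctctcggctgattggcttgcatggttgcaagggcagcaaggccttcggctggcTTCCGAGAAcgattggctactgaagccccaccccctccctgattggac

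**Figure D4:**
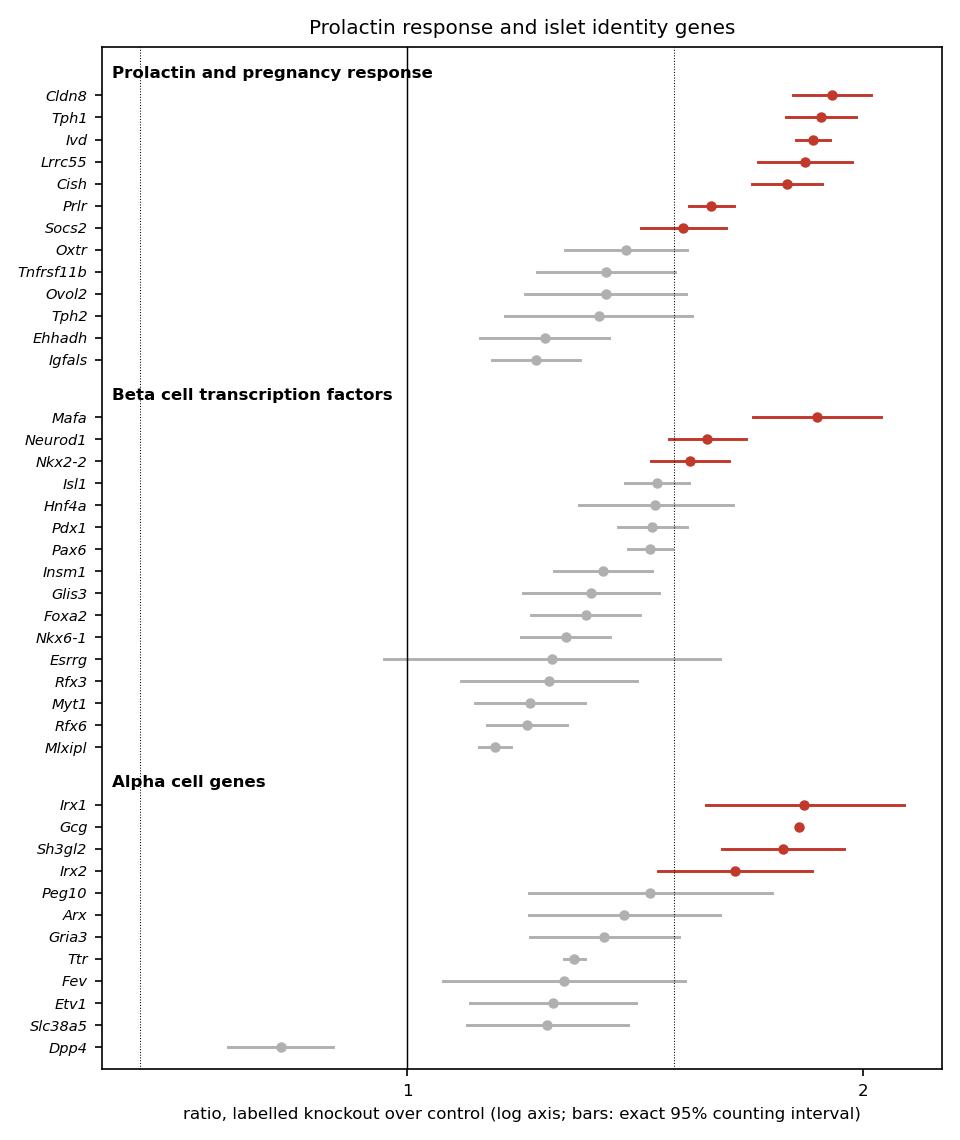
Ratio of scaled counts for prolactin response genes, beta cell transcription factors and alpha cell genes, library labelled knockout over control (x axis, log scale), with exact 95% counting intervals; colours mark calls and dotted lines 1.5-fold. All 13 prolactin response genes and all the transcription factors drawn lie above 1, and Dpp4 is the alpha cell gene below it, at 0.825; with beta cell scaling Cldn8 is the gene here that remains called higher.

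Transcription factors of beta cells had 5 of 18 measured members higher and 0 lower, at a median of 0.48 (0.15 with beta cell scaling, which they help to set and where 0 were called). Mafa, a factor of mature beta cells, went from 25.1 to 45.1 CPM (ratio 1.86, 1.69 to 2.06). The factors Isl1, Pax6 and Pdx1 reached 1.46, 1.45 and 1.45 and were not called. Of the maturity and function genes 0 of 19 were higher and 1 was lower, with a median of 0.24 that became -0.09 with beta cell scaling. Slc2a2, the glucose transporter, had a ratio of 1.08, Ucn3 1.11, Iapp 1.31 and G6pc2 1.43. The lower gene was Npy1r, a receptor of neuropeptide Y, with 125 and 36 counts (ratio 0.324, 0.217 to 0.472). The list of genes of progenitors and of lost beta cell identity went both ways. Of 9 measured, 1 was higher (11.1%, against 6.16% of all genes) and 3 were lower (33.3%, against 14.7%). Neurog3, the endocrine progenitor factor, was higher, with 45 and 74 counts (ratio 1.85, 1.26 to 2.74). Aldh1a3, Mycl and Hk1 were lower, at 0.473, 0.303 and 0.641. The part of immune cell RNA in these lower values was not tested.

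Genes of electrical activity had 0 of 31 members higher and 2 lower, with a median of 0.30. They supply 31 of the 64 genes of beta cell scaling, so it gives no separate check of them. Both lower genes encode IP3 receptors, the calcium release channels of the ER. Itpr2 went from 40.5 to 19.4 CPM (ratio 0.497, 0.445 to 0.554) and Itpr3 from 112 to 70.9 (ratio 0.655, 0.617 to 0.696). Lymphocyte genes were lower in the same library, and their part in these 2 values was not tested. The potassium channel genes Kcnj11 and Abcc8 had ratios of 1.48 and 1.26, and the calcium channel genes Cacna1d and Cacna1c 1.38 and 1.17. Granule docking and exocytosis genes had 2 of 21 higher, 0 lower and 21 above 1, with a median of 0.40 (0.07 with beta cell scaling, where 0 were called). Granins and prohormone processing genes had 0 of 15 called at a median of 0.31, with Pcsk1 at 1.22, Pcsk2 at 1.10 and Chga at 1.06.

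Neuronal adhesion and synapse genes, many of which endocrine cells share with neurons, had 6 of 21 higher and 0 lower, at a median of 0.45 (0.12 with beta cell scaling, where 0 were called). The neuroligin genes Nlgn3 and Nlgn2 had ratios of 2.04 and 1.54, the neurexin gene Nrxn2 1.66, the scaffold gene Dlgap1 1.68 and the nucleotide transporter gene Slc17a9 1.51. Among the genes standing farthest above 1, Scrt1, a neural transcription factor, went from 10.2 to 23.9 CPM (ratio 2.43, 2.10 to 2.82), Pak3, a kinase, from 28.2 to 62.2 (2.28, 2.09 to 2.50) and Car8, a regulator of IP3 receptors, from 44.2 to 91.3 (2.14, 1.99 to 2.30). Synpr, a synaptic vesicle protein gene, had a ratio of 2.0 and Cttnbp2 1.96. Pak3 and Car8 were still called with beta cell scaling, at 1.82 and 1.71.

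Receptors that act on islets had 6 of 23 measured members higher and 1 lower, the last being Npy1r, with a median of 0.17 that became -0.16 with beta cell scaling. Sstr2, the somatostatin receptor of alpha cells, had 51 and 91 counts (ratio 2.01, 1.41 to 2.88). Gpr119 and Ffar4, receptors of lipid ligands, had ratios of 1.75 (1.49 to 2.05) and 1.55 (1.29 to 1.87). Ptger3, a receptor of prostaglandin E2, was at 1.6, Gpr158 at 1.56 and Galr1 at 1.53. Ptges, the enzyme that makes prostaglandin E2, went from 18.6 to 42.2 CPM (ratio 2.35, 2.11 to 2.62). The incretin receptor genes Glp1r and Gipr were not called, at 1.20 and 1.21. Downstream in cAMP signalling, 3 of 26 genes were higher and 3 lower, at a median of 0.09 (-0.24 with beta cell scaling). Adcy1, an adenylate cyclase activated by calcium, had 67 and 145 counts (ratio 2.43, 1.81 to 3.30), and Crem had a ratio of 1.6. Creb1, Pde4b and Nr4a3 were lower, at 0.657, 0.645 and 0.575. Gnas had a ratio of 1.90, and its locus holds overlapping transcripts that the counts may not separate.

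Alpha cell genes had 5 of 13 higher and 0 lower, at a median of 0.47 (0.15 with beta cell scaling, where 0 were called higher and 1 lower). Sh3gl2 had a ratio of 1.77 (1.61 to 1.94), beside Gcg at 1.81 and the factors Irx1 and Irx2 at 1.83 and 1.65. In the list of delta, PP and epsilon cells 4 of 13 genes were higher and 1 was lower, at a median of 0.00 (-0.32 with beta cell scaling). Spock3 had 135 and 222 counts (ratio 1.85, 1.49 to 2.31) and Crhr2 43 and 78 (ratio 2.04, 1.39 to 3.03). Hormone genes of these cells were not called, with ratios of 1.15 for Sst, 0.892 for Ghrl, 0.851 for Pyy and 0.734 for Ppy. Pdyn, which encodes prodynorphin, was lower, from 50.4 to 28.3 CPM (ratio 0.582, 0.530 to 0.639).

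Gene types differed in their shares of calls, which were not tested against each other. Of 720 measured long noncoding genes 20.4% were higher and 9.72% lower, with a median log2 ratio of 0.26. Protein-coding genes numbered 13922, with 5.39% higher and 14.3% lower. In the fifth of protein-coding genes with the lowest levels, 12.0% were higher and 23.3% lower; for the 549 long noncoding genes within that range of levels the shares were 20.8% and 11.5%. Processed pseudogenes, copies of mRNA that can take reads from their source genes, had 3.50% of 686 higher and 27.0% lower. Of 12 listed nuclear RNAs, 8 were higher and 0 lower. They include the imprinted transcripts Rian (231 to 381 CPM, ratio 1.71, 1.65 to 1.76), Mirg (1.52), Meg3 (1.5), Airn (1.69) and Kcnq1ot1 (1.73), and the first 3 of these lie in 1 cluster and can share transcripts. Malat1 was not called, at 1.48. With beta cell scaling Snhg11 alone of the 8 was called, at 1.59.

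Genes that beta cells keep silent, often called disallowed, had 11 of 22 measured members lower and 0 higher, with a median of -0.57. Ldha, lactate dehydrogenase, went from 120 to 46.8 CPM (ratio 0.405, 0.378 to 0.434). Slc16a1, the lactate and pyruvate transporter, had a ratio of 0.570, catalase (Cat) 0.488 and Zfp36l1 0.409. Such genes are expressed widely outside beta cells, and B and T cell genes fell by more, with medians of -2.30 and -2.92. Their part in the result was not tested.

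Lists of energy metabolism differed in their shares of calls. Nuclear subunits of oxidative phosphorylation had 0 of 45 called, with a median of 0.01 (-0.32 with beta cell scaling), and the mitochondrial ribosome had 1 of 37 higher and 0 lower. The TCA cycle and anaplerosis list had 0 of 38 higher and 2 lower, Me2 at 0.536 and Slc25a13 at 0.580. In glycolysis 8 of 28 were lower (28.6%, against 14.7% of all genes) and 1 was higher. The higher gene, Pfkfb2, encodes the isoform of the bifunctional regulator known from heart and islets and went from 32.3 to 49.4 CPM (ratio 1.59, 1.45 to 1.73). Pfkfb3, the isoform of proliferating cells, went from 37.5 to 17.1 CPM (ratio 0.471, 0.419 to 0.528). The hexokinase genes Hk1, Hk2 and Hk3 had ratios of 0.641, 0.326 and 0.468. With beta cell scaling 10 glycolysis genes were lower (35.7%, against 27.6% of all genes) and 0 higher, with Pfkfb2 at 1.26. The part of lymphocyte and myeloid RNA in the glycolysis values was not tested. ChREBP targets had 0 of 14 called, among them Txnip, the thioredoxin inhibitor, with 461 and 298 CPM (ratio 0.670, 0.650 to 0.689), just inside the fold limit.

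Before beta cell scaling, lipid genes were called lower about as often as all genes. The lower members were 3 of 27 in fatty acid oxidation and PPAR targets (11.1%), 4 of 24 in fatty acid synthesis and desaturation (16.7%) and 4 of 25 in cholesterol synthesis and uptake (16%), against 14.7% of all genes, and 0 were higher. These numbers became 14 (51.9%), 7 (29.2%) and 9 (36%) with beta cell scaling, against 27.6% of all genes. Angptl4, an inhibitor of lipoprotein lipase, had 303 and 46 counts (ratio 0.171, 0.122 to 0.233). Cpt1a, the entry enzyme of mitochondrial fatty acid oxidation, had a ratio of 0.588 (0.545 to 0.633). Scd1, the fatty acid desaturase, went from 112 to 31.3 CPM (ratio 0.290, 0.268 to 0.315), beside Gpam at 0.401 and Cd36 at 0.499. Srebf2, the activator of cholesterol synthesis, went from 193 to 115 CPM (ratio 0.615, 0.587 to 0.644). Its target gene Hmgcs1 was not called, at 0.969. The part of lymphocyte RNA in these values was not tested.

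Serine, one-carbon and nucleotide synthesis had 11 of 27 lower and 0 higher, with a median of -0.29. These include the nucleotide enzymes Rrm2 (ratio 0.266), Rrm1 (0.321), Atic (0.547) and Gart (0.577), which dividing cells need. DNA replication had 27 of 33 lower and 0 higher, with a median of -1.14, and mitosis 27 of 29 lower and 0 higher, with a median of -0.99. Mcm3, a subunit of the replicative helicase, went from 49.7 to 12.3 CPM (ratio 0.256, 0.225 to 0.290). Mki67, the marker of cycling cells, went from 93.1 to 34.1 CPM (ratio 0.379, 0.350 to 0.410). Ccnd1 and Ccnd2, the D cyclins most used by beta cells, were not called, at 1.14 and 1.21, whereas Ccnd3, Cdk6 and Cdk2 were lower, at 0.599, 0.453 and 0.408. Prc1 and Foxm1, at 0.646 and 0.643, had the ratios nearest to 1 among the called mitosis genes. B and T cell genes were lower in the same library by medians of -2.30 and -2.92, and their part in these counts was not tested.

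Genes of protein synthesis had medians below 0, with shares of calls that depend on the list and the scaling. Cytosolic ribosomal protein genes, whose reads can be shared with pseudogenes, had 6 of 45 lower (13.3%, against 14.7% of all genes) and 0 higher, with a median of -0.35. Ribosome biogenesis had 8 of 29 lower (27.6%), with a median of -0.32. Ncl, nucleolin, went from 383 to 230 CPM (ratio 0.622, 0.601 to 0.642), and Ddx21, a nucleolar helicase, had a ratio of 0.429. Of 33 initiation and elongation genes 3 were lower (9.09%): Eef2 at 0.634, Eef1a1 at 0.617 and Eif3e at 0.628. With beta cell scaling 30 of 45, 16 of 29 and 12 of 33 of these lists were lower, against 27.6% of all genes. B and T cell genes were lower in the same library, and their part in these values was not tested. The proteasome had 0 of 31 called, with a median of -0.05.

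Proteins known to share mRNA particles with the IMP family had 0 of 21 measured genes higher and 2 lower (9.52%, against 14.7% of all genes). Pabpc1, the cytoplasmic poly(A)-binding protein, went from 387 to 180 CPM (ratio 0.482, 0.465 to 0.499), and Dhx9, an RNA helicase, had a ratio of 0.549 (0.516 to 0.585). Elavl1 (HuR) was at 1.02. The paralogs of Igf2bp2 were under the minimum for a call: Igf2bp1 had 9 and 32 counts and Igf2bp3 had 32 and 10. Of 16 m6A genes Mettl14 alone was called, lower at 0.662 (0.567 to 0.773). Among 41 splicing factors Celf4, a neuronal factor, was higher (ratio 1.72, 1.56 to 1.89), and Mbnl1 and Hnrnpf were lower at 0.583 and 0.542. Insulin, IGF and PI3K-AKT signalling had 0 of 32 higher and 2 lower (6.25%, also under the share of all genes). These were Foxo1 at 0.592 (0.552 to 0.634) and Eif4ebp2, a repressor of translation initiation, at 0.438 (0.382 to 0.501). Insr, Akt1 and Irs2 were at 0.999, 1.15 and 0.807. Igf2, the mRNA after which the IMP family is named, had 168 and 133 counts (ratio 0.890, 0.703 to 1.12). The part of lymphocyte RNA in the lower calls named here was not tested.

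Among signalling pathways of development, Wnt had 2 of 29 higher (Nkd1 at 2.14 and Tcf7l1 at 1.68) and 3 lower, of which Tcf7 and Lef1, both at 0.12, are also T cell factors. Notch had 5 of 19 lower (26.3%), led by Notch2 (65.7 to 19.1 CPM, ratio 0.301, 0.271 to 0.334), a receptor used by B cells and macrophages as well. TGF-beta, BMP and activin had 1 of 30 higher, Id4 with 59 and 116 counts (ratio 2.21, 1.6 to 3.08), and 5 lower, among them Tgfbr2 at 0.352, Tgfb1 at 0.407 and Gdf11 at 0.247. Tgfbr2 and Tgfb1 are expressed in lymphocytes too, whose RNA was lower in the same library, and the part of lymphocytes in these calls was not tested.

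Genes induced within minutes by calcium, growth factors or handling had 2 of 27 measured members higher (7.41%) and 8 lower (29.6%), with a median of -0.13. The shares of all genes were 6.16% and 14.7%. With beta cell scaling 0 were higher and 10 lower (37%, against 27.6% of all genes). Fosb went from 76.8 to 25 CPM (ratio 0.337, 0.308 to 0.370) and Egr3 from 210 to 44 counts (ratio 0.236, 0.166 to 0.327). Fos, Jun, Junb and Nr4a1 were not called, at 0.941, 1.01, 1.04 and 1.12. Ier3 was the other member higher beside Atf3, at 1.68 (1.43 to 1.99). The cAMP response element TGACGTCA was in 3 of 22 promoters of the list (Btg2, Dusp1 and Maff), against 1.77% of all genes, and in 0 of the 7 called genes with a promoter in the table. Heat shock chaperones had 3 of 18 lower (16.7%, against 14.7% of all genes) and 0 higher. The lower genes were the inducible Hspa1b and Hspa1a at 0.273 (0.227 to 0.328) and 0.443 (0.356 to 0.549), and Hsp90ab1 at 0.646. With beta cell scaling 9 of 18 were lower (50%, against 27.6% of all genes). The part of lymphocyte RNA in the lower values of both lists was not tested.

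Antioxidant genes under NRF2 had 1 of 31 higher, Gsta3 with 38 and 84 counts (ratio 2.48, 1.67 to 3.75). In that list 4 were lower (12.9%, against 14.7% of all genes), with Nqo1 at 1.15, Gclm at 1.14 and Hmox1 at 0.764 not called. The p53 list had 4 of 20 lower (20%), Fas at 0.451, Trp53inp1 at 0.514, Tnfrsf10b at 0.519 and Trp53 at 0.665, with Cdkn1a at 1.0. Gadd45a, a growth arrest gene, stood among the genes farthest above 1, from 11 to 22.9 CPM (ratio 2.17, 1.88 to 2.51). Autophagy and lysosome genes had 1 of 33 higher, Wipi1 (50.1 to 86.9 CPM, ratio 1.79, 1.67 to 1.92), and 2 lower (6.06%), among them Tfeb at 0.587. With beta cell scaling the lower shares of the NRF2, p53 and autophagy lists were 38.7%, 25% and 12.1%, against 27.6% of all genes. The part of lymphocyte RNA in the lower values of these lists was not tested.

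Antigen presentation was lower. The immunoproteasome and MHC class I list had 15 of 18 lower and 0 higher, with a median of -0.79. Nlrc5, the activator of class I genes, went from 49.7 to 10 CPM (ratio 0.209, 0.181 to 0.239), B2m from 574 to 233 CPM (0.420, 0.407 to 0.433), and H2-K1, the abundant class I heavy chain gene, had a ratio of 0.588 (0.576 to 0.6). The MHC class II list had 9 of 9 lower, and interferon-induced genes had 9 of 27 lower and 0 higher. Among chemokine and NF-kB genes 14 of 24 were lower, including Tnfaip3 at 0.325 and Nfkb2 at 0.398, while 5 were higher. Cxcl1, a neutrophil attractant, had 34 and 137 counts (ratio 4.53, 3.09 to 6.80), Ccl7 19 and 51 (3.02, 1.75 to 5.41) and Ccl2 51 and 103 (2.27, 1.61 to 3.24). Lymphocytes express class I and class II genes, and their part in these differences was not tested.

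Myeloid cells did not move as 1 group. Of 29 macrophage and dendritic cell genes 4 were higher and 10 lower. The higher genes encode scavenger and uptake receptors or a ficolin of macrophages: Cd163 had 19 and 62 counts (ratio 3.67, 2.16 to 6.50), Fcna 76 and 188 (2.78, 2.12 to 3.68), Folr2 31 and 73 (2.65, 1.72 to 4.17) and Mrc1 73 and 115 (1.77, 1.31 to 2.41). Other genes of resident or scavenging macrophages were lower, among them Timd4 at 186 and 67 counts (ratio 0.405, 0.302 to 0.538) and Marco at 362 and 204 (0.633, 0.531 to 0.754). Genes of cross-presenting dendritic cells were lower too, with Xcr1 at 223 and 22 counts (ratio 0.111, 0.0681 to 0.172), Clec9a at 240 and 68 (0.318) and Batf3 at 119 and 53 (0.501). The pan-macrophage genes C1qa and Adgre1 were not called, at 1.07 and 1.22. A further macrophage marker, Csf1r, was lower, with 1594 and 912 counts (ratio 0.643, 0.592 to 0.698). Several neutrophil granule genes, though not all, were nearly at 0 in control islets and present in the library labelled knockout. Ngp had 2 and 178 counts (ratio 100, 27.3 to 832), Camp 2 and 79, S100a8 11 and 212, Ltf 12 and 177, and Mpo 0 and 48, at least 18.0-fold higher against a limit of 3 counts. In all, 6 of 9 measured members were higher, and 9 others lay under the minimum. Il1b, also higher, was not near 0 in control islets, with 97 and 144 counts. Mmp9 (184 and 134 counts), Lcn2 (122 and 112) and Csf3r (65 and 59) were measured and not called, at 0.819, 1.03 and 1.02. Genes near 0 in 1 library reached the minimum through the other library alone, so the counts of neutrophil and intestinal genes are a description only. The surface gene Cxcr2 went the other way, with 26 and 6 counts, and Ly6g had 0 and 2.

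Genes of intestinal epithelium were lower by large factors. Of 25 measured members (9 others lay under the minimum) 19 were lower and 2 higher, with a median of -3.10, unchanged when the 2 genes at 0 were set to their bounds. Alpi, the intestinal alkaline phosphatase, had 306 and 1 counts (ratio 0.00367, 9.27e-05 to 0.0206). Fabp2, the intestinal fatty acid-binding protein, had 192 and 0 counts, at least 56.9-fold lower, and Apoa4 93 and 0, at least 27.6-fold lower. The list holds absorptive genes (Rbp2 224 and 4 counts, S100g 335 and 2) and goblet cell genes (Tff3 209 and 4, Muc2 98 and 9). Krt20, an intestinal keratin, had 80 and 1 counts. Vil1 and Lgals4, which are also expressed outside the intestine, were not called, at 1.08 and 0.942. Olfm4, a gene of intestinal crypts and of neutrophils, was higher, with 333 and 769 counts (ratio 2.60, 2.28 to 2.96). Levels of the intestinal genes in control islets were low, at most 12.7 CPM for those named here except Vil1 and Lgals4. Whether intestinal tissue was present in the control preparation was not tested.

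**Figure D5:**
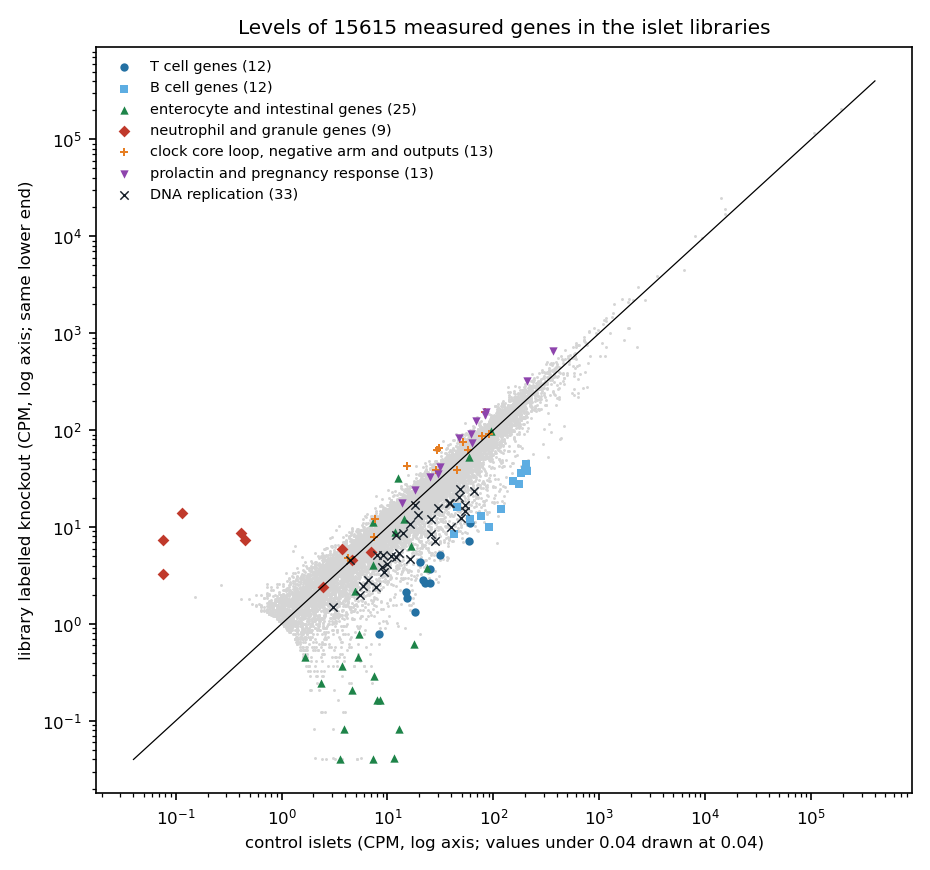
Level of each measured gene in control islets (x axis, CPM, log scale) and in the library labelled knockout (y axis, CPM, log scale), with the line of equal levels; values under 0.04 are drawn at 0.04, grey points are all 15615 measured genes and coloured symbols are members of 7 lists. Intestinal genes form a trail under the line at low levels, T and B cell genes lie under it at higher levels, and 5 neutrophil genes lie far above it at the left.

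Exocrine cells showed a mixed pattern. Of 25 acinar enzyme genes 4 were higher and 4 lower, at a median of 0.11 (-0.22 with beta cell scaling), with Cpb1, a carboxypeptidase, at 1.84 (1.65 to 2.05) and Clps, colipase, at 0.554 (0.497 to 0.617). Among 8 acinar transcription and secretory factors 3 were higher and 0 lower. Bhlha15 (Mist1), a factor that scales the secretory machinery, went from 33.7 to 76.5 CPM (ratio 2.35, 2.17 to 2.55) and was still called with beta cell scaling, at 1.87. The Reg family, which encodes secreted lectins, split, with Reg3a and Reg2 higher (3.49 and 1.73) and Reg1, Reg3b and Reg3g lower (0.498, 0.559 and 0.109). Duct genes had 2 of 20 higher, among them Cftr (138 and 223 counts, ratio 1.82, 1.46 to 2.26), and 3 lower, at a median of 0.26 (-0.07 with beta cell scaling).

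Among genes of supporting cells, endothelial genes had 0 of 22 higher and 1 lower, Pecam1, and pericyte genes 0 of 14 higher and 1 lower. Fibroblast and collagen genes had 4 of 32 lower and 1 higher, Ptgis, the prostacyclin synthase, with 91 and 248 counts (ratio 3.06, 2.40 to 3.94). With beta cell scaling 7 of 22 endothelial, 7 of 14 pericyte and 18 of 32 fibroblast genes were lower, against 27.6% of all genes. The joint list of lymphatic vessels and lymph node stroma had 7 of 12 genes lower, with a median of -1.86. Its vessel genes Lyve1, Prox1 and Flt4 were not called. The lower members were Ccl21a, Ccl19, Glycam1, Madcam1, Pdpn, Tnfsf11 and Cr2, the last also a member of the B cell list. The part of lymphocyte RNA in these lower values was not tested. Schwann and neural genes had 2 of 15 higher and 0 lower, Foxd3 (28 and 43 counts) and Cdh19 (79 and 112), at a median of 0.23 (-0.10 with beta cell scaling). The desmosomal cadherin gene Dsc3, with 538 and 19 counts (ratio 0.0397, 0.0237 to 0.0626), and the retinol transporter gene Stra6, with 433 and 34 (0.0883, 0.0603 to 0.125), were among the genes standing farthest below 1, beside lymphocyte genes.

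The genes around Igf2bp2 did not stand out. Within 5 Mb on either side, 6 of 103 measured genes were higher (5.83%) and 12 lower (11.7%), against 5.39% and 14.1% over the 482 measured genes of chromosome 16. The nearest measured gene was the processed pseudogene Ndufa11b, with 43 and 51 counts (ratio 1.33, 0.871 to 2.05). The nearest protein-coding neighbours, Senp2 and Tra2b, had ratios of 0.991 (0.909 to 1.08) and 0.819 (0.759 to 0.884), and Tmem41a had 1.24. Map3k13, a kinase gene that overlaps a noncoding gene there, had 29 and 46 counts (ratio 1.78, 1.10 to 2.94). Transcript length and GC content of protein-coding genes were alike across calls, with median lengths of 3502 bases for higher, 3497 for lower and 3431 for uncalled genes, and median GC of 49.7%, 48.9% and 50.1%.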

How the data were processed

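The deposited files hold whole-number read counts per gene, made by the authors with STAR and HTSeq on mm10, per the submitters' processing notes. Versions, annotation release and strand option: not given in the sources used here. Overlapping and antisense genes may therefore share reads. The 5 closing entries (50.8% of all entries in control islets, 50.3% in the library labelled knockout, of which no-feature reads are 16.2% and 17.6% of all) stayed out of library sizes. Names, types and positions came from GENCODE M21, which matched 42548 of 43629 identifiers. All 37 mitochondrial genes were at 0 counts.

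Counts were scaled by TMM (edgeR 4.0.16, R 4.3.3) over both islet libraries. Ratios have exact Clopper-Pearson 95% intervals, which cover counting error only, since without molecular identifiers a read is not an independent molecule. Log2 values had 0.5 counts added. A fold against 0 counts is a bound against 3 counts (0.114 CPM in control islets, 0.124 in the library labelled knockout). Leaving out immunoglobulin and T cell receptor types removed 120 genes, which held 0.387% (control) and 0.0952% (labelled knockout) of all gene counts.

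The members, the 77 gene lists (1507 different genes measured) and the limits were chosen with earlier results of these data known. Besides list members, the text names genes from the 25 higher and 25 lower protein-coding genes that stood farthest from 1 by the nearer end of the interval, among those with a mean of 5 CPM or more, and up to 6 called members per list and direction, with uncalled members where their role is needed. Some genes that this rule names, and some list members in the plots of ratios, are not reported here; counts and medians include them. Genes shown beyond these were chosen after their values were seen. Scripts were checked on simulated counts. Alternatives were other scalings, CPM minimums, fold limits, an added variation, and other gene types.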

Additional observations from a re-analysis of the deposited data

How the results depend on the processing

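With beta cell scaling, 229 genes were called higher and 4306 lower, and 29 within 5 Mb of Igf2bp2 were called in either direction instead of 18, so 5.05% of calls were higher instead of 29.5%. A minimum of 5 CPM left 494 higher, and 10 near Igf2bp2. A fold limit of 2 left 195 higher, 1268 lower and 11 near Igf2bp2, and an assumed variation of 0.2 per library left 264 higher and 1465 lower. Library totals gave 786 higher and 2498 lower, the median of ratios 865 and 2399, no minimum 1338 and 2773, the fold limit alone 1038 and 2339, kept immunoglobulin types 965 and 2409, and protein-coding genes alone 750 and 1996. Of 426 called list members and named genes, 15 lost their call under library totals, 9 under the median of ratios, 74 with beta cell scaling, 151 with the assumed variation and 199 at a fold limit of 2, and 0 were reversed under these. No paired analysis was possible because each group holds 1 library, and no library could be left out. Genes under a mean of 1 CPM got no call, which limits what is said of rare transcripts.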

Other observations

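Further lists had from 0 to 5 calls. Glucocorticoid-induced genes had 0 of 12 measured members higher and 3 lower (25%, against 14.7% of all genes): Tsc22d3 (GILZ) went from 84.3 to 50.9 CPM (ratio 0.626, 0.583 to 0.671), Nfkbia had a ratio of 0.625 and the metallothionein gene Mt2 0.618. In the hypoxia response 5 of 21 were lower (23.8%), among them Hif1a (57.4 to 33.7 CPM, ratio 0.609, 0.559 to 0.663) and the oxygen sensor gene Egln3 at 0.609. Hippo and YAP targets had 2 of 14 lower, the kinase gene Lats2 at 0.5 (0.443 to 0.563) and Tead2 at 0.610, with Yap1 not called at 0.865. Aminoacyl-tRNA synthetases had 1 of 20 lower, Vars at 0.620 (0.592 to 0.650). Of 5 measured blood genes 0 were called. Most adipocyte genes were under the minimum, including Adipoq and Plin1. The lymphocyte genes were lower in the same library, and their part in these counts was not tested.

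Other genes with ratios farthest above 1 belong to none of the lists. Adgrd1, an adhesion receptor, had 204 and 504 counts (ratio 2.78, 2.36 to 3.28). Flrt2, a cell adhesion gene, had 169 and 329 counts (ratio 2.19, 1.81 to 2.65), and Trabd went from 137 to 249 CPM (ratio 1.89, 1.81 to 1.97).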
